A study of Homo sapiens with 8 samples.

Results

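The genes described here are 9 genes known from reports of high expression in leukaemia with the t(8;21) translocation: POU4F1, TRH, ROBO1, CACNA2D2, PRAME, IGFBP7, JUP, CAV1 and UBASH3B. They were followed with every probe that the platform annotation assigns to them, 18 of the 47230 probes on the array. The cells were Kasumi-1, an established acute myeloid leukaemia line that carries the translocation, and the question was which of these genes changed when the RUNX1/ETO fusion transcript was knocked down. One arm received 200 nM siRNA against RUNX1/ETO (siRE) and the other 200 nM mismatch siRNA (siMM), both by electroporation. RNA was read on 1 Illumina bead array per siRNA at 48 and 96 h after the first electroporation, at 168 h, which was 72 h after the second, and at 240 h, which was 72 h after the third. Both arms carried the fusion gene and differed in the siRNA given, and all 8 arrays came from a single cell line. Values are given as normalized by the authors, on a scale read as log2, and a fold holds only if that scale is plain log2. A mean ± SD is taken over the 4 times of an arm, and the p-values measure the spread of the siRNA difference between the times, since nothing in the labels says that the times came from separate cultures.

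Of the 9 genes, UBASH3B and JUP fell and IGFBP7 rose in siRE, while POU4F1 was well above background and did not pass the test. ROBO1 lay at the edge of background and did not pass. For TRH, CACNA2D2, PRAME and CAV1 no probe passed the background filter, so a high level of these 4 genes was not seen with these probes. Little RNA and a probe that reads poorly cannot be told apart here. A probe was tested if it exceeded a background cut-off of 5.90 on at least 2 of the 8 arrays. That left 8 of the 18 probes, from 5 of the 9 genes, and 14644 of all 47230 probes. Of the 8 probes, 6 passed at a limma adjusted p under 0.05, 1 higher and 5 lower in siRE, where 6.07% of all tested probes passed (3.27% higher and 2.80% lower). The 5 lower probes were 3 of JUP and 2 of UBASH3B, so they are not separate genes. By gene, 3 of the 5 tested passed, where 7.10% of all genes tested passed. The genes were chosen with earlier results of these data known, so these shares are no test of the list. No leukaemia without the translocation was measured, so whether the genes are high relative to other leukaemias was not analysed here.

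The t(8;21) translocation joins the DNA-binding part of the transcription factor RUNX1 to most of ETO, a corepressor encoded by RUNX1T1. The fusion protein binds at RUNX sites and is known both for repressing genes of myeloid maturation and for being required for the expression of others. The genes reported high in this leukaemia have diverse functions, and several of them, such as POU4F1 and TRH, are better known from neurons than from blood cells.

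**Figure D1:**
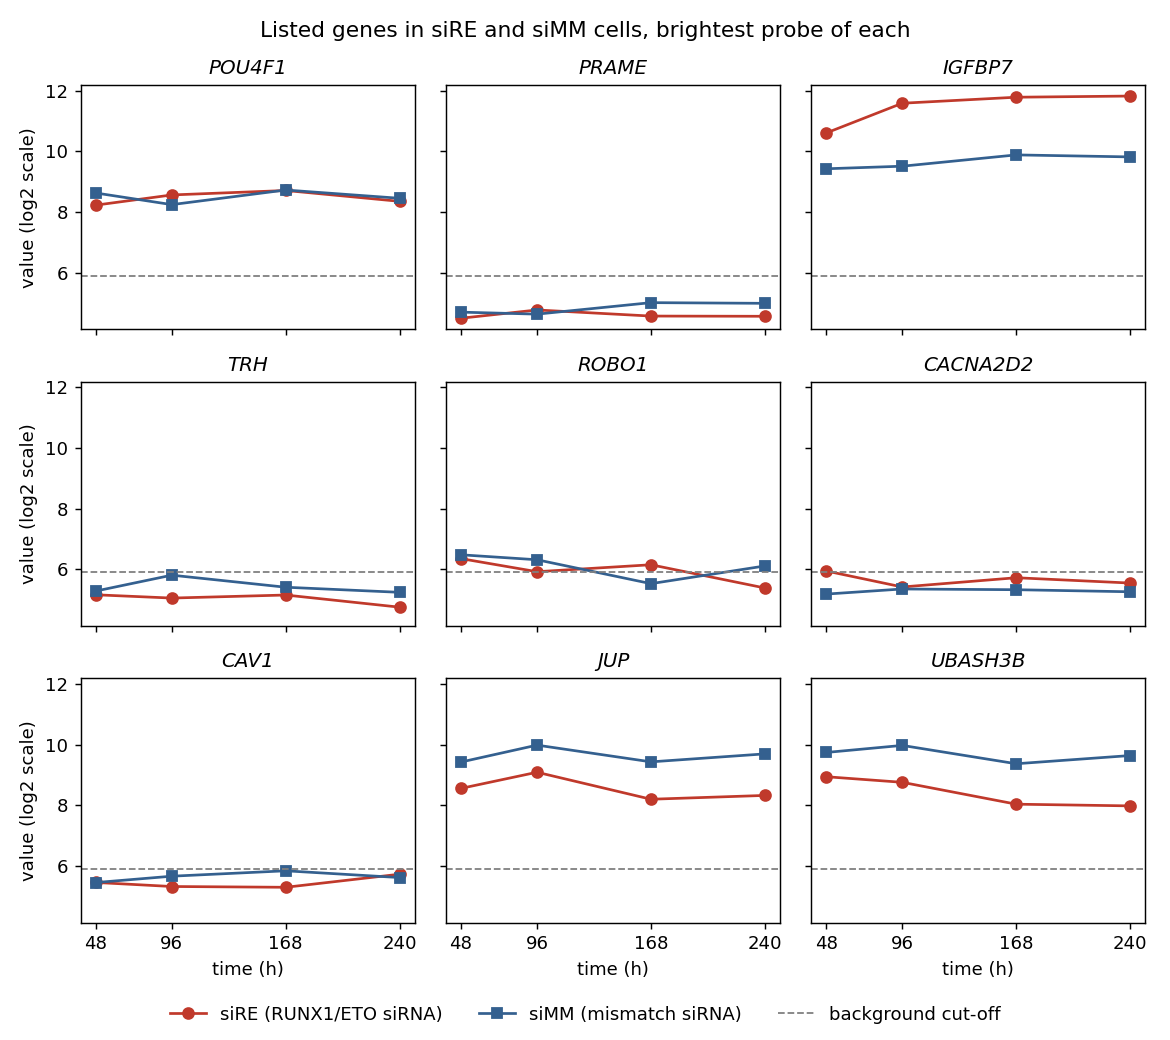
Value on the log2 scale against time in hours for the brightest probe of each of the 9 genes, with siRE as red circles, siMM as blue squares and the background cut-off of 5.90 as a dashed line. The siRE and siMM lines are apart at every time for IGFBP7, JUP and UBASH3B, run together for POU4F1, and stay below or near the cut-off for PRAME, TRH, ROBO1, CACNA2D2 and CAV1.

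RUNX1T1, the gene that gives the fusion its ETO part, had 5 probes, of which 2 were tested. The brighter (ILMN_1812795) read 7.52, 7.81, 7.43 and 7.18 in siRE and 8.86, 9.23, 8.72 and 8.65 in siMM. It fell by 1.38 (SE 0.13, limma adjusted p = 0.000197) and was lower in siRE at all 4 times. The other (ILMN_1724669), above background on 2 siRE and 0 siMM arrays, stood at 0.28 (limma adjusted p = 0.261), higher in siRE at all 4 times. RUNX1, the other partner of the fusion, stood at -0.42 on its tested probe (SE 0.16) and did not pass (limma adjusted p = 0.146).

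Of 7 myeloid blast markers, RUNX1T1 among them, 5 were tested, with 0 higher, 2 lower and 3 that did not pass, where 7.10% of all genes tested passed. Not tested were CD33, which had no probe under that symbol, and PTPRC, none of whose 4 probes passed the background filter. The 2 lower were CD34 and RUNX1T1. The siRNA was directed against the RUNX1/ETO fusion transcript, which carries RUNX1T1 sequence, so that fall is no result about blast markers. CD34, a surface marker of immature blasts, read 10.99, 10.24, 9.06 and 8.50 in siRE, against 11.37, 11.57, 11.72 and 11.62 in siMM on its brightest probe. The arms did not overlap, and the differences were -0.38, -1.33, -2.66 and -3.12 at 48, 96, 168 and 240 h. CD34, named after its values were seen, fell by 1.87 (SE 0.35, limma adjusted p = 0.00958), and 3 of its 5 tested probes passed, all lower. Its call ended with 96 h left out (-2.05, limma adjusted p = 0.0523), with 168 h left out (-1.61, limma adjusted p = 0.0905), with dim values raised to the cut-off (limma adjusted p = 0.0704) and with an intensity trend (limma adjusted p = 0.194). The siRNA by day slope passed on its brightest probe (-0.35 per day, limma adjusted p = 0.00362) and on ILMN_2341229 (-0.34, limma adjusted p = 0.00382). It did not pass on ILMN_1683479, ILMN_1694249 and ILMN_2257587 (limma adjusted p = 0.144, 0.853 and 0.279). MPO lay between 13.9 and 14.2 in siRE and between 14.1 and 14.2 in siMM, and KIT between 10.9 and 11.1 in siRE and between 10.8 and 11.4 in siMM. MPO and KIT did not pass. The mean level of all 18 blast marker probes was 6.99 to 7.34 in siRE and 7.48 to 7.51 in siMM. CD34 and RUNX1T1 gave 5 of these probes each, so the mean does not read the markers evenly. The arrays read bulk RNA, in which fewer cells of a type and less RNA per cell cannot be told apart. Of 5 markers for each other lineage, 0 fibroblast, 0 erythroid, 1 T cell, 1 endothelial, 1 epithelial and 2 B cell genes were tested. The mean level of the epithelial probes was 7.08 to 7.30 in siRE and 7.16 to 7.23 in siMM, and its 1 tested gene, EPCAM, stood at -0.22 (limma adjusted p = 0.416). EPCAM averaged 11.2 in siRE and 11.4 in siMM on its brightest probe. It gave 3 of the 8 epithelial probes, so this mean does not read its markers evenly either. Of the tested markers of other lineages, PECAM1, an adhesion protein of endothelium that blood cells also carry, passed, with a difference of -0.65 (limma adjusted p = 0.0181). Its call ended with 96 h left out (-0.64, limma adjusted p = 0.0995) and with 168 h left out (-0.56, limma adjusted p = 0.152), and the part of CD34 and PECAM1 in the results below was not tested.

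POU4F1 is a POU homeodomain transcription factor, also called BRN3A, known from sensory neurons. Its single probe (ILMN_1738691, chromosome 13) read 8.23, 8.56, 8.71 and 8.35 in siRE and 8.63, 8.24, 8.72 and 8.45 in siMM at 48, 96, 168 and 240 h. The arms overlapped, and siRE was above siMM at 96 h alone. The means were 8.46 ± 0.21 in siRE and 8.51 ± 0.21 in siMM (SD, n = 4 arrays each). The difference of -0.05 (SE 0.15, limma adjusted p = 0.875) had a 95% interval of -0.37 to 0.28, which spans 77.1 to 121% of the siMM signal. A change of the size seen for UBASH3B or JUP lies outside that interval, and a change within it was not detectable with these arrays. The difference was 0.07 with 48 h left out (limma adjusted p = 0.84), so its sign rests on that pair. Of 5 other POU factors listed, POU4F2 and POU4F3 included, 0 had a tested probe.

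PRAME, a tumour antigen that acts as the substrate receptor of a CUL2 ubiquitin ligase and is known to dampen retinoic acid receptor signalling, was read by 3 probes on chromosome 22. None was above background on any array. The brightest (ILMN_1740744) read 4.50, 4.77, 4.57 and 4.56 in siRE and 4.70, 4.63, 5.01 and 4.99 in siMM, and the arms overlapped. Of 10 listed partners and relatives (its ligase, retinoid receptors, EZH2 and PRAMEF1) 7 were tested, and 0 passed in either direction, with a median difference of -0.08 against -0.04 over all 8830 genes tested. Among all genes tested, 7.10% passed. RBX1, the RING subunit of the ligase, stood at -0.08 (limma adjusted p = 0.76) and ELOC, its elongin C subunit, at -0.32 (limma adjusted p = 0.168).

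IGFBP7 is a secreted protein of the vessel wall and stroma that binds insulin-like growth factors weakly. Its single probe (ILMN_2062468, chromosome 4) read 10.60, 11.58, 11.78 and 11.82 in siRE, against 9.42, 9.51, 9.88 and 9.81 in siMM. The lowest siRE array lay above the highest siMM array, which held for 5.01% of all tested probes, while all siRE arrays lay below all siMM arrays for 5.11%. IGFBP7 averaged 11.45 ± 0.57 in siRE and 9.66 ± 0.22 in siMM (SD, n = 4 arrays each), a rise of 1.79 (SE 0.17, 95% interval 1.43 to 2.15, limma adjusted p = 0.000197). That is 3.46-fold, with an interval of 2.69 to 4.45-fold. Of the tested probes, 0.341% had a larger positive difference. The single-time differences, each of 1 array against 1, were 1.18, 2.07, 1.90 and 2.01 at 48, 96, 168 and 240 h. All of them exceeded 1, a size that 0.594, 1.15, 1.99 and 3.51% of tested probes reached upwards at those times.

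Of 11 listed genes of the insulin-like growth factor axis 4 were tested, with 0 higher, 1 lower and a median difference of -0.34, against 7.10% passing and a median of -0.04 over all genes tested. IGFBP4, which binds and restrains insulin-like growth factors, read 7.84, 7.41, 7.17 and 8.39 in siRE and 9.16, 9.17, 8.04 and 8.68 in siMM. The arms overlapped, and IGFBP4 was lower in siRE at each time, by -1.06 on average (SE 0.21, limma adjusted p = 0.0121). Its call ended with 96 h left out (-0.83, limma adjusted p = 0.0913), with 168 h left out (-1.12, limma adjusted p = 0.0673), without time as a factor (limma adjusted p = 0.0543) and with dim values raised to the cut-off (limma adjusted p = 0.0614).

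TRH encodes the precursor of thyrotropin-releasing hormone, a hypothalamic peptide. Its single probe (ILMN_1694817, chromosome 3) read 5.16, 5.05, 5.15 and 4.75 in siRE, against 5.28, 5.81, 5.41 and 5.24 in siMM. All siRE values lay below all siMM values, and all 8 lay below the background cut-off. In the fit without a filter the difference was -0.41 (95% interval -0.72 to -0.09) and did not pass (limma adjusted p = 0.262). Of 8 listed genes of TRH processing and signalling 2 were tested, the amidating enzyme PAM at -0.16 (limma adjusted p = 0.508) and the protease FURIN at -0.00029 (limma adjusted p = 0.999).

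ROBO1, a receptor for the SLIT guidance proteins, had 3 probes on chromosome 3, of which ILMN_1806790 was tested. It read 6.35, 5.92, 6.15 and 5.39 in siRE and 6.48, 6.32, 5.53 and 6.11 in siMM, above the cut-off on 3 arrays of each arm. The arms overlapped, siRE was lower at 48, 96 and 240 h and higher at 168 h. The difference of -0.16 (SE 0.20, 95% interval -0.59 to 0.27) did not pass (limma adjusted p = 0.678). It stood at 0.03 with 240 h left out (limma adjusted p = 0.949). The other ROBO1 probes averaged 4.78 and 4.46 in siRE and 4.64 and 4.47 in siMM, below the cut-off on every array. Of 12 listed SLIT and ROBO genes 6 were tested and 0 passed, with a median of -0.15. ABL1, a tyrosine kinase downstream of ROBO, stood at -0.17 and VASP, an actin regulator, at -0.20 (limma adjusted p = 0.546 and 0.473).

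CACNA2D2, an auxiliary subunit of voltage-gated calcium channels, had 2 probes on chromosome 3 and neither passed the filter. The brighter (ILMN_1711049) read 5.95, 5.42, 5.72 and 5.55 in siRE, against 5.18, 5.35, 5.33 and 5.26 in siMM. All siRE values lay above all siMM values, but only the siRE array of 48 h exceeded the cut-off of 5.90. Without a filter the difference was 0.38 (95% interval 0.06 to 0.69) and did not pass (limma adjusted p = 0.321). With TRH, this made 2 of the 10 untested probes whose arms did not overlap, where 3.15% of all untested probes had such arms. Of 16 other channel subunits listed, the array read 15, and CACNB3, a cytoplasmic beta subunit, was the 1 that was tested. It read 6.35, 7.25, 6.71 and 5.79 in siRE and 7.13, 7.63, 7.70 and 7.10 in siMM, with overlap between the arms but lower in siRE at each time. CACNB3 fell by 0.87 (SE 0.16, limma adjusted p = 0.00986), a call that ended with 168 h left out (-0.83, limma adjusted p = 0.0882) and without time as a factor (limma adjusted p = 0.0955).

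CAV1, the coat protein of caveolae, had 2 probes on chromosome 7, both below the cut-off on all 8 arrays. The brighter (ILMN_1687583) read 5.46, 5.32, 5.30 and 5.73 in siRE and 5.45, 5.66, 5.84 and 5.62 in siMM, with overlapping arms. The other (ILMN_2149226) averaged 5.24 ± 0.26 in siRE and 5.52 ± 0.29 in siMM (SD, n = 4 arrays each). Of 7 listed caveolins and cavins 3 were tested, with 0 higher, 2 lower and a median of -0.60, against 7.10% passing and a median of -0.04 over all genes tested. The 2 lower genes, CAVIN1 and CAVIN2, passed the background filter through siMM arrays alone. They could therefore enter only as lower in siRE, and the count and median are no result about the list. CAVIN1, which CAV1 needs to form caveolae, read 5.04, 4.86, 4.64 and 4.17 in siRE, against 6.07, 7.05, 6.14 and 6.32 in siMM. No siRE array was above background and all siMM arrays were, which puts CAVIN1 at least 1.41-fold lower in siRE. Its call (-1.71, limma adjusted p = 0.000526) came from the values as read, below background in siRE, and not from that bound. CAVIN2, another coat component, read 5.34, 5.57, 5.32 and 5.48 in siRE, against 5.77, 6.08, 6.34 and 5.93 in siMM. CAVIN2 was at least 1.09-fold lower, with 3 of 4 siMM arrays above background. Its call (-0.60, limma adjusted p = 0.0356) also came from the values as read. With dim values raised to the cut-off, CAVIN1 stood at -0.49 and CAVIN2 at -0.16, and both calls ended (limma adjusted p = 0.162 and 0.414). The call of CAVIN2 also ended with 96 h left out (-0.63, limma adjusted p = 0.123), with 168 h left out (-0.46, limma adjusted p = 0.234) and with an intensity trend (limma adjusted p = 0.0559).

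JUP, also called plakoglobin or gamma-catenin, is a relative of beta-catenin that links cadherins to the cytoskeleton and can act in Wnt signalling. It was read by 3 probes on chromosome 17, and all 3 fell. The brightest (ILMN_1733811) read 8.56, 9.09, 8.20 and 8.33 in siRE, against 9.43, 9.98, 9.43 and 9.69 in siMM. The arms did not overlap, and siRE was lower at every time. The means were 8.54 ± 0.39 in siRE and 9.63 ± 0.26 in siMM (SD, n = 4 arrays each), a difference of -1.09 (SE 0.14, 95% interval -1.40 to -0.78, limma adjusted p = 0.0012). This left 47.0% of the siMM signal, with an interval of 37.8 to 58.3%. The differences were -0.87, -0.89, -1.23 and -1.37 at 48, 96, 168 and 240 h.

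The second JUP probe (ILMN_1741970) read 6.46, 6.72, 5.95 and 6.05 in siRE, against 6.81, 7.08, 6.90 and 7.10 in siMM, a difference of -0.68 (SE 0.16, limma adjusted p = 0.0312). Its arms did not overlap either. The third (ILMN_2366864) read 5.68, 6.55, 5.55 and 5.33 in siRE, against 6.51, 6.63, 6.80 and 6.90 in siMM, and the siRE array of 96 h lay within the siMM range. Its difference was -0.93 (SE 0.21, limma adjusted p = 0.0251), with only 1 of 4 siRE arrays above background. The call of the second probe ended with 96 h left out (-0.79, limma adjusted p = 0.0735), with 168 h left out (-0.58, limma adjusted p = 0.206) and with 240 h left out (-0.55, limma adjusted p = 0.0859). That of the third ended with 168 h left out (-0.82, limma adjusted p = 0.175) and with 240 h left out (-0.72, limma adjusted p = 0.0622). The brightest probe passed in all 12 alternative runs, with a limma adjusted p of at most 0.0183.

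Among 21 listed catenin, junction and Wnt genes, 14 were tested, with 0 higher, 2 lower and a median of -0.08, against 7.10% passing and a median of -0.04 over all genes tested. CCND1, cyclin D1, read 6.23, 5.74, 5.15 and 5.10 in siRE, against 6.96, 6.95, 6.60 and 7.14 in siMM. CCND1 fell by 1.36 (SE 0.19, limma adjusted p = 0.00191), with 1 of 4 siRE arrays above background. CDH2, N-cadherin, a partner of JUP at cell contacts, read 9.08, 8.76, 8.37 and 8.01 in siRE, against 9.39, 9.54, 9.30 and 9.25 in siMM. CDH2 fell by 0.81 (SE 0.16, limma adjusted p = 0.014), and neither gene's arms overlapped. The call of CDH2 ended with 96 h left out (-0.83, limma adjusted p = 0.081) and with 168 h left out (-0.77, limma adjusted p = 0.109). CTNNB1, beta-catenin, named after its values were seen, stood at 0.13 (limma adjusted p = 0.627).

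UBASH3B, also called STS-1 or TULA-2, is a phosphatase that binds CBL and dampens tyrosine kinase signalling. Its brighter probe (ILMN_1653856, chromosome 11) read 8.94, 8.76, 8.04 and 7.98 in siRE, against 9.74, 9.97, 9.37 and 9.64 in siMM. The arms did not overlap. UBASH3B averaged 8.43 ± 0.49 in siRE and 9.68 ± 0.25 in siMM (SD, n = 4 arrays each), a difference of -1.25 (SE 0.16, 95% interval -1.60 to -0.91, limma adjusted p = 0.000977). That left 42.0% of the siMM signal, with an interval of 33.1 to 53.3%. Of the tested probes, 0.348% had a more negative difference, against 0.546% for the brightest JUP probe. The second UBASH3B probe (ILMN_3249435) read 7.38, 7.16, 6.51 and 6.14 in siRE, against 8.06, 8.04, 7.80 and 7.70 in siMM, also without overlap. It fell by 1.10 (SE 0.16, limma adjusted p = 0.00282). Both probes passed in all 12 alternative runs, with differences between -1.40 and -1.12 for the brighter and between -1.24 and -0.95 for the dimmer. Of the 8 tested probes of the listed genes, 5 had arms that did not overlap, 1 with siRE above (IGFBP7) and 4 with siRE below (2 each of JUP and UBASH3B). Among all tested probes 10.1% had such arms.

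**Figure D2:**
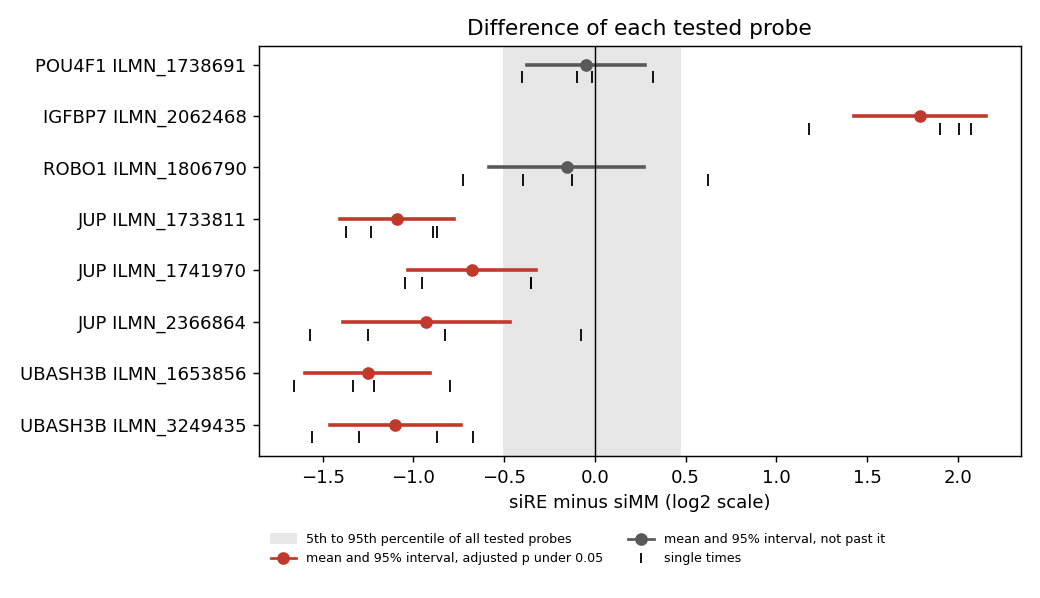
Difference siRE minus siMM on the log2 scale for the 8 tested probes of the listed genes, with points and bars for the mean and its 95% interval over the 4 times, black ticks for the single times and grey shading for the 5th to 95th percentile of all tested probes (-0.50 to 0.47). The IGFBP7 interval lies wholly above the shading, the intervals of both UBASH3B probes and the brightest JUP probe lie wholly below it, and those of POU4F1 and ROBO1 cross 0.

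Of 12 listed partners of UBASH3B 8 were tested, with 1 higher, 1 lower, 6 that did not pass and a median of 0.03, where 7.10% of all genes tested passed and their median was -0.04. SYK, a tyrosine kinase that UBASH3B is known to dephosphorylate, read 8.06, 8.76, 8.52 and 8.69 in siRE, against 7.37, 7.35, 6.98 and 7.18 in siMM. It rose by 1.29 (SE 0.16, limma adjusted p = 0.00108), and the arms did not overlap. STAT5A, a transcription factor of cytokine receptors, read 8.76, 9.13, 9.10 and 8.99 in siRE, against 9.31, 9.51, 9.63 and 9.67 in siMM. The arms did not overlap, and STAT5A fell by 0.54 (SE 0.13, limma adjusted p = 0.0353). That call ended without each pair in turn, at -0.53, -0.59, -0.54 and -0.49 with 48, 96, 168 and 240 h left out (limma adjusted p = 0.0679, 0.102, 0.175 and 0.0859). It also ended without a filter on dim probes (limma adjusted p = 0.0629) and without time as a factor (limma adjusted p = 0.0624). CBL and KIT, named after their values were seen, stood at 0.40 and -0.13 (limma adjusted p = 0.0911 and 0.662).

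**Figure D3:**
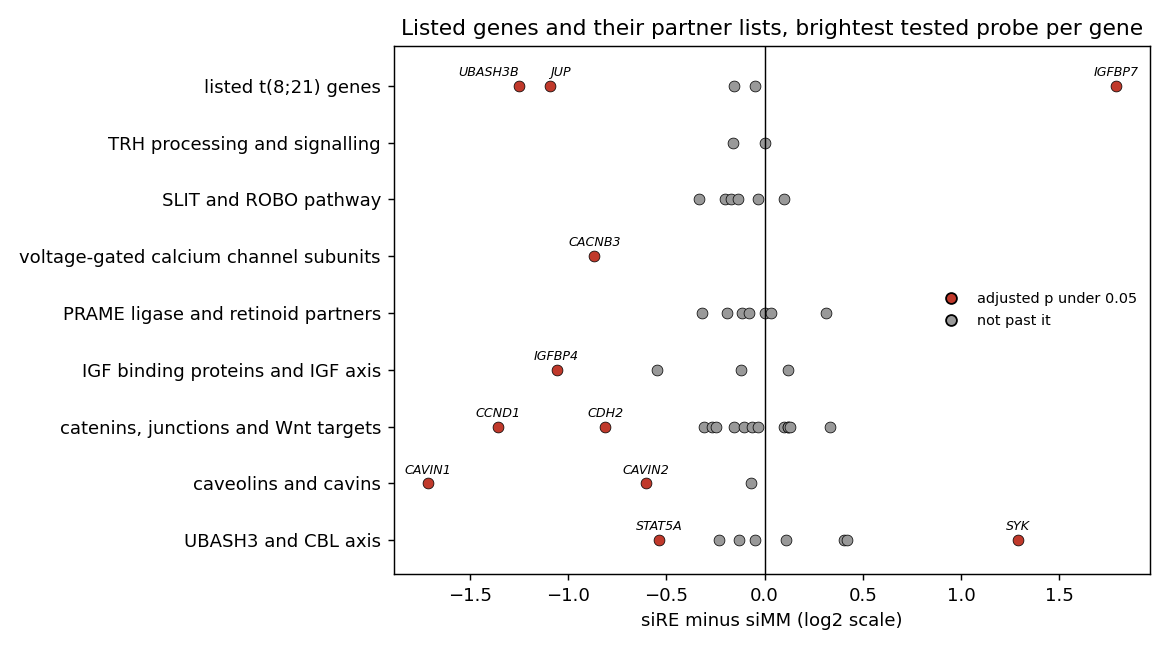
Difference siRE minus siMM on the log2 scale, averaged over the 4 times, for the brightest tested probe of each listed gene and of each gene in its partner lists, 1 row per list, with red points for a limma adjusted p under 0.05 and grey points otherwise. In red are IGFBP7 and SYK on the positive side and UBASH3B, JUP, CACNB3, IGFBP4, CCND1, CDH2, CAVIN1, CAVIN2 and STAT5A on the negative side. CAVIN1 and CAVIN2 passed the background filter through siMM arrays alone, so they could enter only as lower.

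The 250 bases before the annotated start sites of UBASH3B and JUP are shown because both genes fell in siRE, and those of POU4F1 because it did not pass. They are from RefSeq on GRCh38.p14, where 8 of the 9 genes matched with 15 start sites in all. IGFBP7, which rose, was the gene without a match, so the counts below do not cover it. Capitals mark the E-box CAGNTG or its reverse complement, the motif of the E proteins. UBASH3B is chr11:122655472-122655721 on the plus strand. The JUP start sites are chr17:41786712-41786961 (distal) and chr17:41785977-41786226 (proximal) and POU4F1 is chr13:78603553-78603802, all on the minus strand, and all are written 5′ to 3′.
UBASH3B: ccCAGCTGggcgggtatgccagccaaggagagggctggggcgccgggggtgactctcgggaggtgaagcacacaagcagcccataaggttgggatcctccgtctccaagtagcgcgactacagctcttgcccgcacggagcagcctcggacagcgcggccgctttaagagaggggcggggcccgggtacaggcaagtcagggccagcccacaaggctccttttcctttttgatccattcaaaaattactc
JUP distal: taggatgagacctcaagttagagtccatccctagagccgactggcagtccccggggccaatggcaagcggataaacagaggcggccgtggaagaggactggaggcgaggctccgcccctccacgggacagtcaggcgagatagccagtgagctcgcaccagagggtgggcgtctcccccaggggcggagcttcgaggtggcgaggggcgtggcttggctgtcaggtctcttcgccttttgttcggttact
JUP proximal: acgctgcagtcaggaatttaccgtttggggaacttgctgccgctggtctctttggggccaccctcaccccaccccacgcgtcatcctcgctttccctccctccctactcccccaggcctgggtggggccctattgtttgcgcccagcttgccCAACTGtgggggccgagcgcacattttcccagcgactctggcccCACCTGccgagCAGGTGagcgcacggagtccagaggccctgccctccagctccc
POU4F1: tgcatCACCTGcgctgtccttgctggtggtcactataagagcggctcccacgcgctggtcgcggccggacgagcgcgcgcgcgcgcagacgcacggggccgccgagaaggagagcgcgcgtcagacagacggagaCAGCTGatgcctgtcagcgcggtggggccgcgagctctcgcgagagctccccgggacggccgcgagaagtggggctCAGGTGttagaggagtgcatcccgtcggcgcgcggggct
The E-box stood at 1 position before UBASH3B, at 0 before the distal and 3 before the proximal JUP start, and at 3 before POU4F1. It was present in 7 of the 15 windows and in 42.5% of 35116 such windows of all genes. The RUNX motifs TGTGGT and TGCGGT, searched on both strands, were in none of the 4 printed windows and in 1 of the 15, a CAV1 window, against 16.3% of all windows. The AP-1 motif TGANTCA was in 0 of the 15 and in 6.57% of all. The printed windows held no other searched motif, so no matches of different motifs overlapped there. A match, or the lack of one, describes the letters of these windows alone.

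Differences at single times rest on 1 array against 1 and have no test. UBASH3B stood at -0.80, -1.22, -1.33 and -1.66 at 48, 96, 168 and 240 h, and its second probe at -0.67, -0.87, -1.30 and -1.56. It kept 57.5, 43.1, 39.7 and 31.7% of the siMM signal, while the brighter RUNX1T1 probe kept between 36.0 and 40.9%. The brightest JUP probe kept 54.8, 53.8, 42.6 and 38.7%. IGFBP7 was 2.27-fold at 48 h and 4.21, 3.73 and 4.02-fold at 96, 168 and 240 h. A fall of 1 or more was reached by UBASH3B at 96, 168 and 240 h and by JUP at 168 and 240 h, where 0.560, 1.64 and 4.95% of tested probes reached it at 96, 168 and 240 h.

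**Figure D4:**
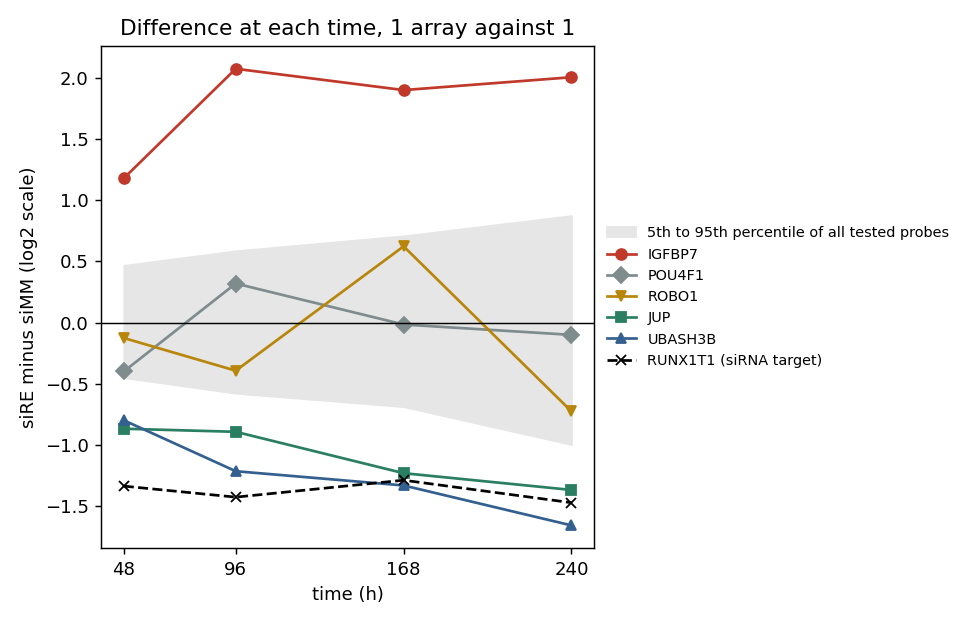
Difference siRE minus siMM on the log2 scale at each time in hours, 1 array against 1, for the brightest probe of each tested gene and for the brighter RUNX1T1 probe (dashed), over grey shading for the 5th to 95th percentile of all tested probes. The RUNX1T1 line is labelled siRNA target because the targeted fusion transcript carries RUNX1T1 sequence. IGFBP7 stays above the shading and JUP and UBASH3B below it at all 4 times, while that RUNX1T1 probe holds between -1.47 and -1.29.

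Whether a difference changed with time was tested as the siRNA by day slope. Cells had 1 electroporation at 48 and 96 h, 2 at 168 h and 3 at 240 h, so time and repeated dosing cannot be told apart. None of the 8 probes passed (limma adjusted p between 0.175 and 0.906), where 0.949% of all tested probes did. At an unadjusted p under 0.05 there were 4 of the 8, both UBASH3B probes and the dimmer JUP probes, against 16.6% of all tested probes. The slope of the brighter UBASH3B probe was -0.10 per day (SE 0.04, limma adjusted p = 0.243), with a 95% interval of -0.18 to -0.01. That of IGFBP7 was 0.08 (SE 0.05, limma adjusted p = 0.428) and that of POU4F1 0.01 (SE 0.05, limma adjusted p = 0.906). The third JUP probe passed with 48 h left out (-0.25 per day, limma adjusted p = 0.0472), against -0.14 with all times (limma adjusted p = 0.224).

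Among the listed genes, UBASH3B and JUP had like profiles over the 8 arrays and IGFBP7 the reverse. Pearson's r was 0.94 between the brightest probes of UBASH3B and JUP, -0.96 between UBASH3B and IGFBP7 and -0.85 between JUP and IGFBP7, with POU4F1 between -0.14 and 0.09 against these 3. These are descriptions over 8 arrays that share the siRNA contrast. Of 8829 other genes, those whose profile was most like UBASH3B were ARHGEF3 (r = 0.99, difference -2.06), PAG1, a membrane adaptor (0.99, -1.25), and INA, an intermediate filament protein (0.99, -1.15). In siRE, 2 of 4 arrays of ARHGEF3, 1 of PAG1 and 2 of INA were above background, and with dim values raised to the cut-off the differences were -1.92, -0.82 and -0.81, all still past the test. For JUP they were SEPTIN5, a septin (r = 0.99, difference -0.87), MAP4K4, a kinase (0.99, -0.66), and TEX10 (0.98, -0.41). For IGFBP7 they were CEACAM6, a granulocyte adhesion protein (r = 0.99, difference 3.14), CTSG, cathepsin G (0.99, 2.26), and CD24, a surface glycoprotein (0.99, 2.94). All but TEX10 passed the test (limma adjusted p = 0.0998 for TEX10 and between 8.9e-05 and 0.0174 for the others). These genes were picked over the same 8 arrays for profiles like those of called genes. Their passing therefore follows largely from the choice and is no separate result. The call of MAP4K4 ended with 96 h left out (-0.73, limma adjusted p = 0.0585) and with 168 h left out (-0.62, limma adjusted p = 0.135).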

How the data were processed

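RNA of Kasumi-1 cells was read on 8 Illumina bead arrays, 1 per siRNA and time. The deposited values are read as log2, since as natural logs or log10 their maximum of 14.4 would be out of a scanner's range. The authors used lumi, per the submitters' processing notes. Which background correction and transform they chose is not given in the sources used. Sorted values differed by at most 0.0235 between arrays, as after quantile normalization, so a shift shared by most transcripts is not visible. A non-normalized table was left out, since no label ties its 16 value columns to samples.

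The background cut-off of 5.90, set from the distribution, is the mode of all values (5.22) plus the 90th percentile of how far lower values lie from it. Symbols are from the platform annotation (30112 probes with 1 symbol, 8 with several, 17110 with none), chromosomes from RefSeq. The brightest tested probe stood for a gene. A bound ("at least") is the brighter mean over the dimmer mean after each dim array was raised to the cut-off.

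The 14644 probes above background were tested with limma 3.58.1 (lmFit, eBayes) under R 4.3.3, and p-values were adjusted by Benjamini-Hochberg over all of them, at 0.05. The factors were siRNA and time (3 residual and 8.16 prior degrees of freedom), and a siRNA by day term for slopes (2 residual). The number of arrays limits the precision. The time on the labels was used to pair arrays: deviations from the arm means correlated at 0.375, 0.292, 0.212 and 0.0724 between arrays of the same time, at 48, 96, 168 and 240 h. Alternatives dropped time as a factor, changed the filter, scaling, weights or floor, or left out a time. The fit was tested on simulated data. The genes and lists were chosen with earlier results of these data known. The text names all probes of the 9 genes, partner genes past the threshold or otherwise the 2 brightest of a list, and for each called gene the 3 genes with the highest Pearson r. The E-box search was added after the data were seen.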

Additional observations from a re-analysis of the deposited data

Results flagged for a closer look

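Dixon's test for an outlying array was applied to the 4 arrays of each arm for 45 named probes, 90 groups in all, of which chance flags about 1 in 20. It singled out no probe of the 9 listed genes and 4 others, each at 96 h. These were FURIN at 6.70 in siMM (next array 6.34), VASP at 6.92 in siRE (next 6.49), SEPTIN5 at 8.88 in siMM (next 8.43) and PECAM1 at 8.11 in siRE (next 7.95), each the highest of its arm. With 96 h left out the differences of SEPTIN5 and PECAM1 stayed negative.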

How the results depend on the processing

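The calls of IGFBP7, UBASH3B (both probes) and the brightest JUP probe held in all 12 alternative runs, and 4 to 6 of the member probes passed in every run. Without time as a factor (no replicate block) 530 of 14644 probes passed instead of 889, and JUP ILMN_1741970 (-0.68) did not (limma adjusted p = 0.0541). With dim values raised to the cut-off 464 probes passed, and JUP ILMN_1741970 and ILMN_2366864 stood at -0.68 and -0.65 (limma adjusted p = 0.0672 and 0.0867), while the ROBO1 slope turned to 0.0158 per day, as it did with array weights (0.0172). Leaving out each time in turn gave 251 (with 168 h left out) to 1175 called probes, and 310 with 96 h left out. The differences then ranged from -0.172 to 0.0672 for POU4F1, -0.416 to 0.0342 for ROBO1, -0.79 to -0.55 for JUP ILMN_1741970 and -1.21 to -0.72 for JUP ILMN_2366864, and -0.0915 to 0.0530 for FURIN, which was also 0.0214 after cyclic loess. Slopes per day ranged from -0.0700 to 0.0618 for POU4F1, -0.0705 to 0.165 for ROBO1, -0.0116 to 0.128 for IGFBP7 and -0.248 to -0.0922 for JUP ILMN_2366864. The count of probes with a called slope was 219 with a filter of 4 arrays, 10 with the floor, 387 with an intensity trend, 37 with array weights and 38 to 402 with a time left out (96 and 168 h), against 139. Causes were not tested, but a left-out time leaves fewer arrays. Signals near background limit TRH, PRAME, CAV1, CACNA2D2 and ROBO1.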
